A study of Mus musculus with 6 samples.

Results

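The respiratory chain genes described here are the protein-coding genes whose symbols name nuclear-encoded subunits of the chain and of ATP synthase, taken as all symbols that begin with Nduf, Uqcr, Cox4 to Cox8 or Atp5 and the symbols Sdha, Sdhb, Sdhc and Sdhd. The rule took 92 of the 43629 genes in the table. It also took genes that are not subunits of the finished complexes, namely 7 assembly factors of complex I (Ndufaf1 to Ndufaf7), the supercomplex factor Cox7a2l and the related genes Atp5s and Atp5sl, and it left out cytochrome c1 (Cyc1), whose symbol does not match. The members comprised 7 core and 29 accessory subunits of complex I, the 4 subunits of complex II, 8 subunits of complex III, 11 subunits of complex IV, 7 tissue-restricted forms of complex IV subunits, the complex IV paralog Ndufa4l2, and 15 subunits of ATP synthase. All but 1 of the 92 passed the filter on low values and were tested, the exception being Cox8c, which had 0 reads in all 6 libraries.

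There were 3 RNA libraries of medulloblastoma from Math1-Cre SmoM2.c/wt mice and 3 of cerebellum from SmoM2.c/wt mice, which carried the same conditional allele without Cre. All were female C57BL/6 mice at postnatal day 35, and the design text calls the controls littermates. SmoM2 is a constitutively active form of the Hedgehog signal transducer Smoothened. Math1-Cre switches it on in cells of the Math1 lineage, among them cerebellar granule neuron progenitors. Cells outside the Math1 lineage carry the allele unrecombined. The labels number the libraries and do not say whether they are from different mice. The p-values given here therefore cover variation among 6 libraries, some or all of which could be technical.

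The respiratory chain passes electrons from NADH (at complex I) and succinate (at complex II) through ubiquinone to complex III, and through cytochrome c to complex IV, where oxygen is reduced. Complexes I, III and IV pump protons across the inner mitochondrial membrane, and ATP synthase uses the gradient to make ATP. Most subunits are encoded in the nucleus and imported, while a small core of complexes I, III and IV and of ATP synthase is encoded in mitochondrial DNA. Mature neurons, with their constant ion pumping, draw most of their ATP from this pathway, whereas cerebellar granule neuron progenitors are known for a strongly glycolytic metabolism.

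Libraries held 44902217 to 69550200 reads, the most in tumor library 1, and values are normalized counts, that is, reads divided by 1 size factor per library. The members took 1.10% ± 0.075 of reads in tumor and 1.39% ± 0.062 in control (SD, n = 3 each). Markers of several cell types also differed between the 2 groups. Summed normalized counts of 6 mature granule neuron markers ran from 16258 to 29313 in tumor and 217760.5 to 246410.4 in control, with all 6 markers called lower. Those of 7 Purkinje cell markers ran from 36549 to 72632 in tumor and 451915 to 462019 in control, and those of 6 oligodendrocyte markers from 61496 to 156547 in tumor and 659707 to 805671 in control, with every marker of both lists called lower. The 3 markers of granule neuron progenitors and cycling cells ran from 74572 to 86984 in tumor and 298 to 489 in control, and the 5 microglia and macrophage markers from 13559 to 14742 in tumor and 4268 to 5203 in control, with all markers of both lists called higher. No marker of these 5 lists was at 0 in either group. The part of these cell types in the results below was not tested, and in bulk RNA fewer cells of a type and less RNA per cell cannot be told apart.

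Most of the chain's nuclear genes were modestly lower in the tumors. Of the 91 tested members, 56 fell, 7 rose and 28 did not pass the test, made by limma at an adjusted p under 0.05, with Benjamini-Hochberg adjustment over the 22117 genes in the fit. Among all genes tested, 62.1% were called, 31.5% lower and 30.6% higher, while 61.5% of the members were called lower. Over the members the log2 fold change had a median of -0.40, a level 24.4% lower in tumor, against -0.02 for all genes tested. Among 9419 tested protein-coding genes at the members' level (mean at or above the members' 10th percentile), 36.4% were lower and 41.8% higher. Their median log2 fold change was 0.08. The changes were small: 10 members fell by at least 2-fold, a size that 20.5% of all genes tested reached. All 3 tumor libraries lay below all 3 control libraries for 61 members and above them for 7, where 34.5% and 33.2% of all genes tested did so. Among the 74 subunits of the 5 complexes, 44 fell, 5 rose and 25 did not pass, with a median of -0.35.

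**Figure D1:**
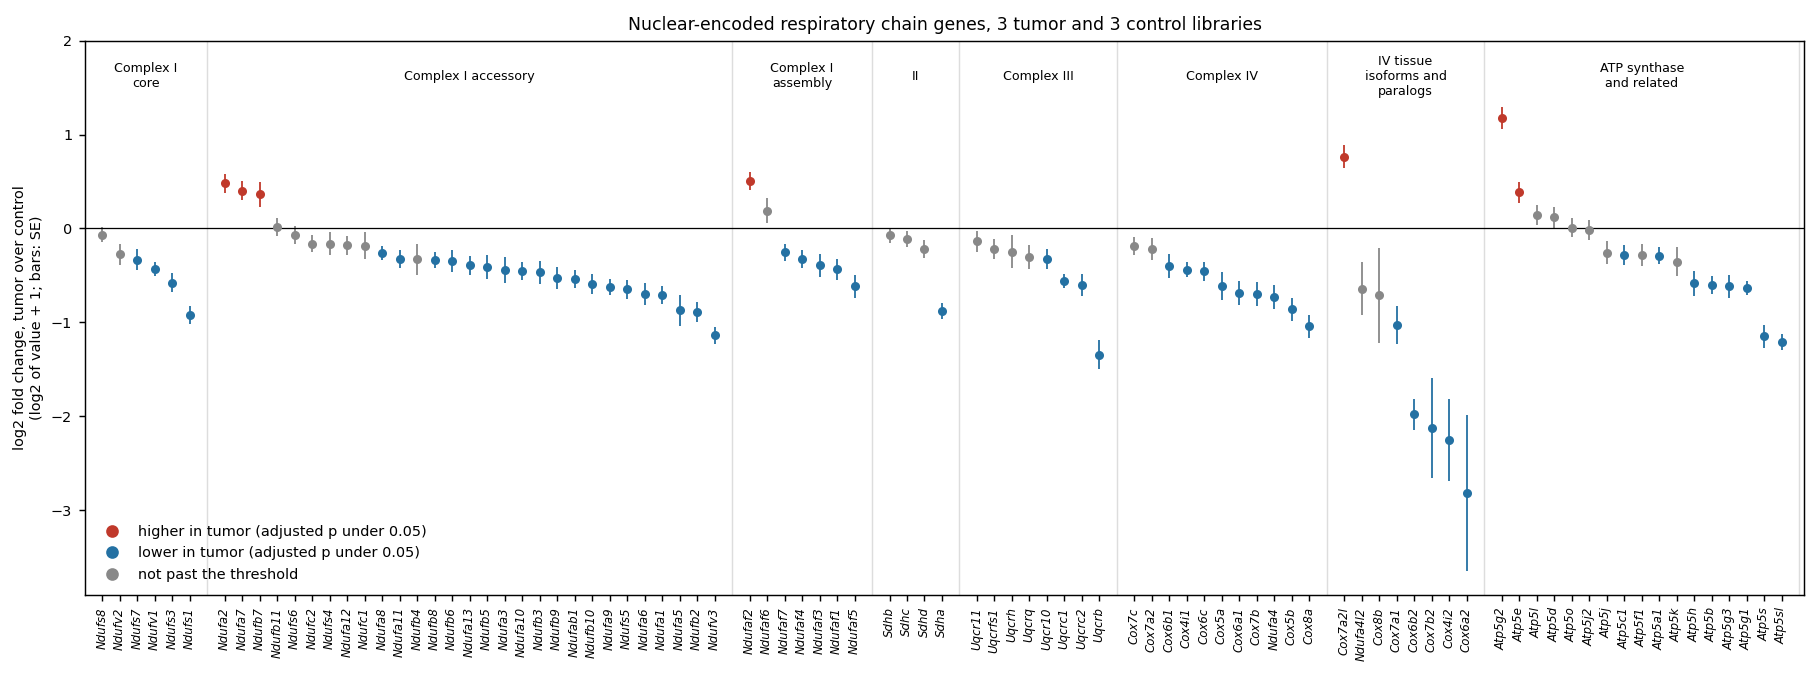
Log2 fold change (tumor over control, on the log2 of value + 1) of 90 of the 91 tested genes, with standard errors, grouped by complex and sorted within each group. Red points are called higher, blue points lower and grey points neither. Most points lie between 0 and -1, the tissue-restricted form Cox8b (-0.71) among them. Atp5g2 (1.17) and Cox7a2l (0.77) stand above, and the 5 tissue-restricted complex IV forms called lower stand below.

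Complex I takes electrons from NADH. Its 7 nuclear core subunits together hold the flavin and the iron-sulfur clusters. Of these, 5 fell (71.4%, against 31.5% of all genes tested), 0 rose and 2 did not pass. Their median log2 fold change was -0.43. Ndufs1, the largest iron-sulfur subunit, had 7623, 6966 and 8784 normalized counts in the tumor libraries, against 14394, 14676 and 15089 in the control libraries. It fell by 47.3% (log2 fold change -0.92 ± 0.09 SE, limma adjusted p = 1.67e-05), with no overlap between the groups. Ndufs3, of the ubiquinone-reducing part, had 3523, 2757 and 3238 normalized counts in the tumor libraries, against 4977, 4682 and 4483 in the control libraries (log2 fold change -0.58 ± 0.10 SE, limma adjusted p = 7.39e-04). Ndufv1, which binds NADH, fell by 0.43 on the log2 scale. Ndufs7, an iron-sulfur subunit next to the ubiquinone site, had the smallest called fall at 0.33, and the call ended without any 1 of the control libraries or without tumor library 3 (limma adjusted p up to 0.0878). The iron-sulfur subunits Ndufv2 (-0.27, limma adjusted p = 0.0573) and Ndufs8 (-0.06, limma adjusted p = 0.510) did not pass. Ndufv2 passed without tumor library 1 or 3 (limma adjusted p up to 0.0403) and stood at -0.15 without tumor library 2. The core subunits summed to 36895 ± 2539 normalized counts in tumor and 52468 ± 645 in control (ratio 0.703).

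The 29 accessory subunits surround the core and are needed for its assembly and stability. Of these, 19 fell (65.5%, against 31.5% of all genes tested), 3 rose and 7 did not pass, with a median of -0.39. Ndufv3, at the NADH-binding end, had 2203, 1949.5 and 2385 normalized counts in the tumor libraries, against 4983, 4689 and 4673 in the control libraries. It showed the largest fall of the complex (log2 fold change -1.14 ± 0.09 SE, limma adjusted p = 3.29e-06), and its tumor libraries were all below its control libraries. Ndufb2, a small subunit of the membrane arm, had 2285, 1779 and 2048 normalized counts in the tumor libraries, against 4039, 3447 and 3788 in the control libraries (log2 fold change -0.89 ± 0.11 SE, limma adjusted p = 6.09e-05). Ndufa5, of the peripheral arm, fell by 0.87, with 4111, 2597 and 4181 normalized counts in the tumor libraries and 6734, 6221 and 6555 in the control libraries, so that tumor library 2 lay well below the other tumor libraries. The remaining called falls, among them Ndufab1, the mitochondrial acyl carrier protein (-0.53), ran from -0.71 (Ndufa1) to -0.26 (Ndufa8).

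Against this direction, 3 accessory subunits rose. Ndufa2, of the NADH-binding module, had 2659.7, 2528 and 2271 normalized counts in the tumor libraries, against 1815, 1607 and 1927 in the control libraries (log2 fold change 0.48 ± 0.10 SE, limma adjusted p = 0.00224). Ndufa7, of the peripheral arm, had 2368, 2557 and 2146 normalized counts in the tumor libraries, against 1904, 1617 and 1833 in the control libraries (log2 fold change 0.40 ± 0.10 SE, limma adjusted p = 0.00643). In both genes every tumor library lay above every control library. Ndufb7, on the intermembrane-space face, had 1410.4, 1731 and 1261 normalized counts in the tumor libraries, against 1087, 1039 and 1278 in the control libraries, so tumor library 3 lay within the range of the controls. Its call (log2 fold change 0.36 ± 0.13 SE, limma adjusted p = 0.0386) ended without control library 1 or 2 or without tumor library 1 or 2, and its log2 fold change was 0.24 without tumor library 2. The 7 accessory subunits that did not pass ran from -0.33 (Ndufb4) to 0.01 (Ndufb11). Leaving out 1 library ended the calls of Ndufa3 (limma adjusted p up to 0.0695), Ndufa8 (0.0781), Ndufa11 (0.0643), Ndufb5 (0.0757) and Ndufb6 (0.114), in each case without a control library, and Ndufa11 also without tumor library 1 and Ndufb6 without tumor library 2 or 3. Without tumor library 2, Ndufa3 stood at -0.27 in place of -0.44. Ndufb4 passed without tumor library 1 (limma adjusted p = 0.0350) and stood at -0.19 without tumor library 2.

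The 7 assembly factors of complex I included in the rule split as 5 lower, 1 higher and 1 not passed, with a median of -0.32. Thus 71.4% were lower, against 31.5% of all genes tested. Ndufaf2, a relative of the subunit Ndufa12 that holds its place during assembly, had 1344, 1174 and 1299 normalized counts in the tumor libraries, against 848, 909.5 and 926 in the control libraries (log2 fold change 0.51 ± 0.10 SE, limma adjusted p = 0.00147). Ndufaf5, which hydroxylates Ndufs7, had 1426, 1093 and 1310.5 normalized counts in the tumor libraries, against 2093, 1783 and 1979 in the control libraries (log2 fold change -0.62 ± 0.12 SE, limma adjusted p = 0.00119). Each of the 2 genes had no overlap between the groups, in opposite directions. Ndufaf1, of the complex that builds the membrane arm, fell by 0.43, and Ndufaf3 and Ndufaf4, which act together on the ubiquinone-reducing part, by 0.39 and 0.32. Ndufaf7, a methyltransferase, fell by 0.25 (limma adjusted p = 0.0323), and Ndufaf6 did not pass (0.19, limma adjusted p = 0.253), although all its tumor libraries lay above all its control libraries. The calls of Ndufaf3 and Ndufaf4 ended without control library 1 and that of Ndufaf3 also without control library 3 (limma adjusted p up to 0.0698 and 0.0631), while that of Ndufaf7 ended in every omission of 1 library other than tumor library 1 (up to 0.110).

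Complex II, succinate dehydrogenase, is the only complex of the chain with no mitochondrially encoded subunit and also serves the citric acid cycle. A single subunit of its 4 fell (25%, against 31.5% of all genes tested and 36.4% of protein-coding genes at the members' level). Sdha, the flavoprotein that oxidises succinate, had 15344, 13602 and 15668 normalized counts in the tumor libraries, against 26784, 27309 and 27696 in the control libraries. It fell by 45.5% (log2 fold change -0.88 ± 0.08 SE, limma adjusted p = 1.01e-05), and the groups lay far apart. The iron-sulfur subunit Sdhb averaged 4354 ± 226 normalized counts in tumor and 4576 ± 215 in control (log2 fold change -0.07 ± 0.08 SE, limma adjusted p = 0.460), and the groups overlapped. The membrane anchors Sdhc and Sdhd had log2 fold changes of -0.11 (limma adjusted p = 0.268) and -0.22 (limma adjusted p = 0.0619). Sdhd passed without tumor library 1 or 3 (limma adjusted p up to 0.0416) and stood at -0.13 without tumor library 2. The median over the complex was -0.17, and -0.09 without tumor library 2.

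Complex III passes electrons from ubiquinol to cytochrome c. Of its 8 nuclear subunits taken by the rule, 4 fell (50%, against 31.5% of all genes tested), 0 rose and 4 did not pass. Their median was -0.31. Uqcrb, a small subunit that contacts the ubiquinone site, had 4556, 2925 and 4541 normalized counts in the tumor libraries, against 9949.6, 9804 and 10125 in the control libraries. It showed the largest fall of any subunit of the 5 complexes, 60.6% lower in tumor (log2 fold change -1.34 ± 0.15 SE, limma adjusted p = 3.83e-05), and tumor library 2 was the lowest. Its span overlaps the gene Gm10767 on the opposite strand. The core proteins Uqcrc2 and Uqcrc1 averaged 13607 ± 2078 normalized counts in tumor and 20537 ± 1483 in control, and 5932 ± 288 normalized counts in tumor and 8743 ± 203 in control (log2 fold changes -0.60 and -0.56, limma adjusted p = 0.00146 and 1.10e-04). The small subunit Uqcr10 fell by 0.33, a call that ended without control library 1 or 3 or without tumor library 1 (limma adjusted p up to 0.103). The Rieske iron-sulfur protein Uqcrfs1 (-0.22), the hinge protein Uqcrh (-0.25) and the small subunits Uqcrq (-0.30) and Uqcr11 (-0.14) did not pass, with limma adjusted p from 0.0641 to 0.313. Uqcrfs1 passed without tumor library 1 (0.0456) and stood at -0.10 without tumor library 2, and Uqcrq passed without control library 2 or tumor library 2 (up to 0.0317). Uqcrh had 22718, 14395 and 24359 normalized counts in the tumor libraries, against 24330.2, 23612 and 23086 in the control libraries. Tumor libraries 1 and 2 lay below every control library and tumor library 3 above every one, and the log2 fold change was -0.0090 without tumor library 2.

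Complex IV, cytochrome c oxidase, reduces oxygen to water. Of its 11 general nuclear subunits, 9 fell (81.8%, against 31.5% of all genes tested), 0 rose and 2 did not pass. Their median log2 fold change was -0.61. Cox8a, the smallest subunit, had 5157, 4059.6 and 4076 normalized counts in the tumor libraries, against 10306, 7881 and 9203 in the control libraries and fell by 51.5% (log2 fold change -1.04 ± 0.12 SE, limma adjusted p = 5.03e-05). Cox5b, a zinc-binding subunit on the matrix side, had 4439.9, 3375 and 4319 normalized counts in the tumor libraries, against 8061, 6805 and 7095 in the control libraries (log2 fold change -0.86 ± 0.12 SE, limma adjusted p = 1.26e-04). Ndufa4, named for complex I but now counted as a subunit of complex IV, had 19308, 13959 and 19890.2 normalized counts in the tumor libraries, against 30581, 27562 and 28964 in the control libraries (log2 fold change -0.73 ± 0.13 SE, limma adjusted p = 8.64e-04). None of these 3 genes had overlapping groups, and tumor library 2 was the lowest tumor library in each. Cox7b (-0.69), Cox6a1 (-0.69), Cox5a (-0.61), Cox6c (-0.46), Cox4i1 (-0.44) and Cox6b1 (-0.40) also fell. Cox7a2 (-0.22, limma adjusted p = 0.137) and Cox7c (-0.19, limma adjusted p = 0.117) did not pass. Cox7c passed without control library 2 (limma adjusted p = 0.0389) and stood at -0.12 without control library 3, and Cox7a2 stood at -0.08 without tumor library 2. Cox6b1 stood at -0.24 without tumor library 2 and lost its call without control library 1 (limma adjusted p = 0.0514). The 11 subunits summed to 101721 ± 12656 normalized counts in tumor and 148216 ± 9062 in control (ratio 0.686).

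Cox7a2l, which is related to Cox7a2 and known as a factor for supercomplexes of complexes III and IV, went the other way in RNA. It had 6561, 5275 and 6083 normalized counts in the tumor libraries, against 3372, 3064 and 4148 in the control libraries, all tumor libraries above all control libraries. It rose 1.70-fold (log2 fold change 0.77 ± 0.12 SE, limma adjusted p = 4.31e-04), the second-largest rise among the members. Cox7a2, its relative in the complex itself, averaged 13297 ± 2154 normalized counts in tumor and 15368 ± 849 in control and did not pass. Neither the Cox7a2l protein nor supercomplexes were measured.

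**Figure D2:**
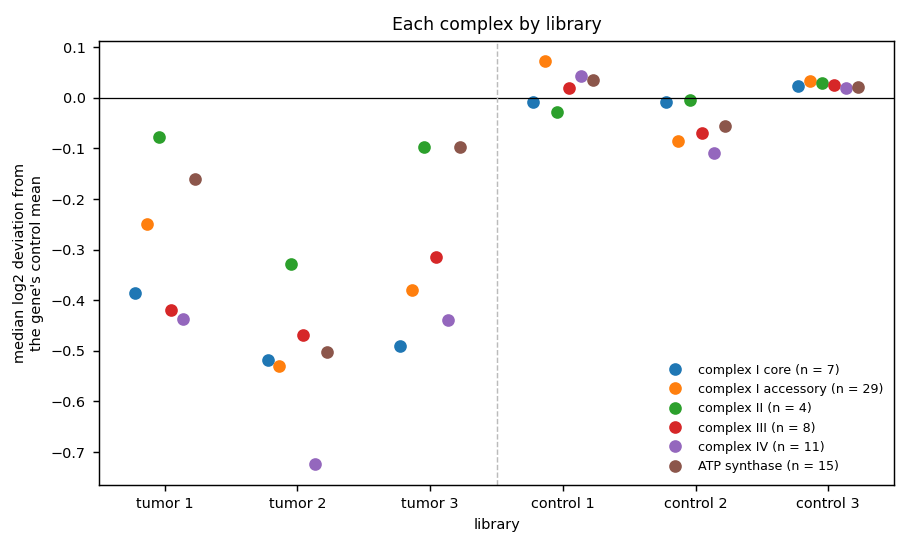
Median over the subunits of each complex of the log2 deviation from the gene's control mean, for each of the 6 libraries (tumor left of the dashed line, control right). In the tumor libraries all 6 medians lie below 0, and those of tumor library 2 reach -0.72 for complex IV, while the medians of the control libraries lie between -0.11 and 0.07.

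The size of the change differed between the 3 tumor libraries. Over the 91 members, the median deviation from the control mean was -0.33, -0.53 and -0.33 in tumor libraries 1, 2 and 3, against 0.04, -0.07 and 0.03 in control libraries 1, 2 and 3. Tumor library 2 was the lowest tumor library in 63 of the 91 members and the highest in 15. Among the control libraries, number 2 was the lowest in 64 of 91. Tumor library 2 also had the lowest median of the tumor libraries in each complex plotted by library. Without tumor library 2 the members' median was -0.36, with 55 members lower and 6 higher. In that fit, 6983 of the 21571 genes tested were lower and 6573 higher. What sets that library apart was not tested.

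Several complex IV subunits exist as pairs, a general form and a form restricted to certain tissues: Cox4i2 is known from lung and responds to oxygen, Cox6a2, Cox7a1 and Cox8b from heart and skeletal muscle, and Cox6b2, Cox7b2 and Cox8c from testis. The tissue-restricted forms were rare in both groups. Per kilobase of exon sequence, the 5 forms that fell stood at 0.142% (Cox6a2) to 1.85% (Cox7a1) of their general partner in tumor and 0.489% (Cox6a2) to 3.24% (Cox7a1) in control. Of the 6 with reads, 5 fell (83.3%, against 31.5% of all genes tested) and 1 did not pass. Their median log2 fold change was -2.05. Cox6b2 had 156, 163 and 128 normalized counts in the tumor libraries, against 540.5, 648 and 581 in the control libraries, which is 3.95-fold lower in tumor (log2 fold change -1.98 ± 0.16 SE, limma adjusted p = 3.26e-06). It is the only member in the authors' deposited shorter list of 2654 genes, where 13738 genes were called here. That list gives its log2 fold change as -2.04 with an FDR of 0.0487. The other members called here are thus absent from that list. Cox4i2 had 15.9, 24.6 and 57.1 normalized counts in the tumor libraries, against 138, 169 and 113 in the control libraries (log2 fold change -2.25 ± 0.44 SE, limma adjusted p = 0.00131), and tumor library 3 was the highest of the tumor libraries. Cox7a1 had 174, 117 and 128 normalized counts in the tumor libraries, against 291, 264 and 291 in the control libraries (log2 fold change -1.03 ± 0.20 SE, limma adjusted p = 0.00127).

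The remaining tissue-restricted forms rested on few reads. Cox7b2 had 8.67, 12.3 and 21.6 normalized counts in the tumor libraries, against 40.2, 132 and 42.8 in the control libraries (log2 fold change -2.12 ± 0.53 SE, limma adjusted p = 0.00619), and control library 2 stood far above the other control libraries. Cox6a2 had 8.67, 8.5 and 0 normalized counts in the tumor libraries, against 34.6, 21.4 and 39.6 in the control libraries, 107 reads in all, and no read in tumor library 3. Its log2 fold change was -2.82 ± 0.83 SE (limma adjusted p = 0.0141) and -1.73 without tumor library 3. Its span overlaps Itgad on the opposite strand. Cox8b, with 109 reads in all, had 6.5, 18 and 18.7 normalized counts in the tumor libraries, against 33.5, 16.6 and 19.2 in the control libraries, and the groups overlapped (log2 fold change -0.71 ± 0.51 SE, limma adjusted p = 0.252). The 9 striated muscle markers summed to 124 to 173 in tumor and 176 to 213 in control, with 2 of the 9 at 0 in all controls. Of the 7 muscle markers tested, 2 were called lower, 0 higher and 5 did not pass. The 5 pericyte markers summed to 4633 to 8228 in tumor and 14960.2 to 16747 in control, with 4 of 5 called lower. The part of these cell types in the values of these forms was not tested, nor was that of the other cell types with lower markers.

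The balance between paired forms was tested as the log2 ratio of value + 1 within each library. The restricted form was lower relative to its general partner in every tumor library than in every control library for 5 complex IV pairs. The differences (tumor minus control) were -2.13 for Cox6a2 over Cox6a1, -1.81 for Cox4i2 over Cox4i1, -1.58 for Cox6b2 over Cox6b1, -1.43 for Cox7b2 over Cox7b and -0.81 for Cox7a1 over Cox7a2. Each gave p = 0.1 in an exact two-sided permutation test, the smallest p that 3 against 3 libraries allow, so that p = 0.143 after Benjamini-Hochberg adjustment over the 10 pairs and no pair can pass the threshold. The difference was -1.15 for Cox6a2 without tumor library 3 and -0.84 for Cox7b2 without control library 2. For Cox8b over Cox8a (0.33, and 0.03 to 0.90 when 1 library was left out, exact permutation p = 0.8) and Ndufa4l2 over Ndufa4 (0.09, exact permutation p = 0.7) the groups overlapped. Ndufa4l2, a paralog of Ndufa4 known to be induced by hypoxia, had 51.3, 63.3 and 47.2 normalized counts in the tumor libraries, against 73.7, 106 and 75.9 in the control libraries (log2 fold change -0.64 ± 0.28 SE, limma adjusted p = 0.0702), and passed without tumor library 2 (limma adjusted p = 0.0498). Its span overlaps Shmt2 on the opposite strand. Of 10 listed genes induced by hypoxia, 8 fell (80%, against 31.5% of all genes tested), 0 rose and 2 did not pass. The falls included those of Car9, a carbonic anhydrase (-2.96), and Bnip3, a mitophagy receptor (-1.64). What lies behind these falls was not tested.

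**Figure D3:**
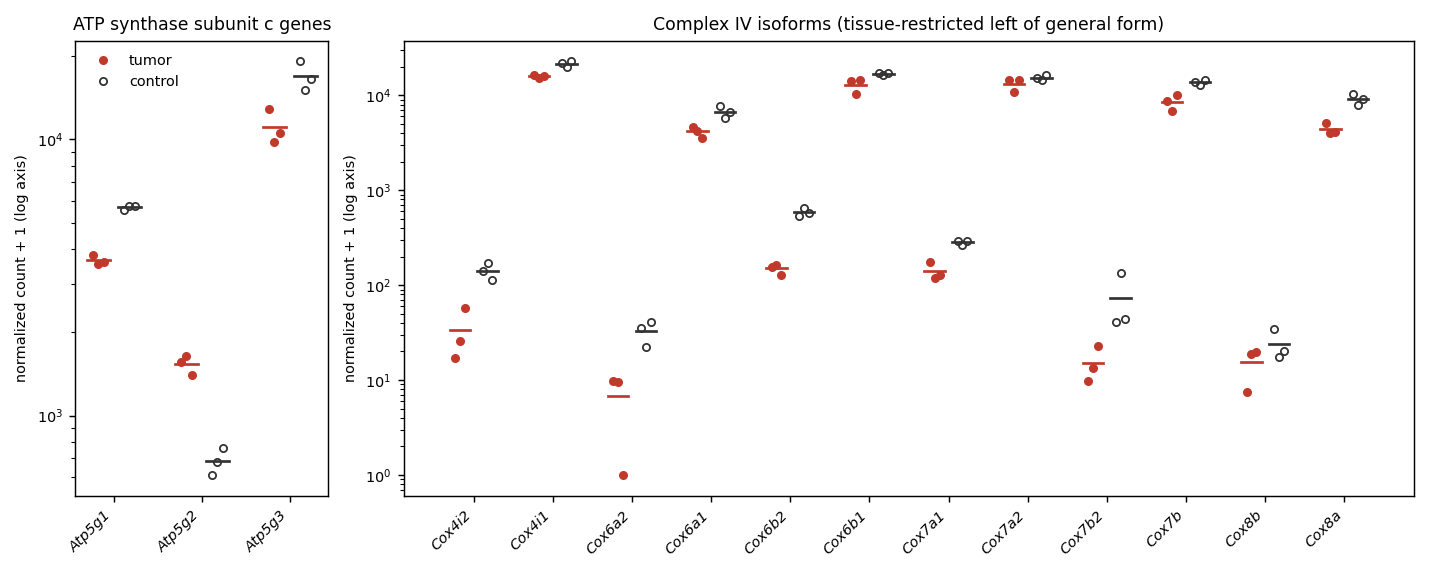
Normalized count + 1 (log axis) of the 3 subunit c genes of ATP synthase (left) and of 6 pairs of complex IV forms (right), in 3 tumor libraries (filled) and 3 control libraries (open), with bars at the mean. Atp5g2 is higher in the tumors while Atp5g1 and Atp5g3 are lower, and the restricted forms of complex IV lie far below their general partners in both groups.

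ATP synthase consists of a catalytic head, a rotor and a stalk. Of its 15 subunits, 6 fell (40%), 2 rose and 7 did not pass. That share lower stands beside 31.5% of all genes tested and 36.4% of protein-coding genes at the members' level. The median was -0.28, and -0.15 without tumor library 2. The catalytic beta subunit Atp5b had 58941, 51208 and 58165 normalized counts in the tumor libraries, against 85075, 83965 and 85558 in the control libraries (log2 fold change -0.60 ± 0.10 SE, limma adjusted p = 3.82e-04). The alpha subunit Atp5a1 fell by 0.29 and the gamma subunit of the rotor, Atp5c1, by 0.28 on the log2 scale. Leaving out 1 library ended both calls, that of Atp5a1 without control library 1 or 3 (limma adjusted p up to 0.0732) and that of Atp5c1 without any 1 control library or without tumor library 2 (up to 0.130). Without tumor library 2, Atp5c1 stood at -0.17. Atp5h, subunit d of the peripheral stalk, fell by 0.58 (limma adjusted p = 0.00351).

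Of the other subunits, leaving aside subunit c, 1 rose and 7 did not pass. Subunit b (Atp5f1, -0.28), the coupling subunit Atp5j (-0.26), the stalk cap Atp5o (0.01) and the rotor subunit delta (Atp5d, 0.12) did not pass, nor did the dimer-interface subunits Atp5k (-0.35), Atp5j2 (-0.02) and Atp5l (0.15). Atp5f1 passed without tumor library 1 (limma adjusted p = 0.0225), and Atp5j and Atp5k passed without tumor library 3 (0.0195 and 0.00435). Without tumor library 2 the values of Atp5f1, Atp5j and Atp5k were -0.15, -0.11 and -0.16. The rotor subunit epsilon, Atp5e, had 7266, 6386 and 6669 normalized counts in the tumor libraries, against 5835, 4374 and 5462 in the control libraries (log2 fold change 0.38 ± 0.11 SE, limma adjusted p = 0.0140). It was higher in all tumor libraries than in all control libraries, and without control library 2 the call was lost (limma adjusted p = 0.0585). The related genes Atp5s, coupling factor B, and Atp5sl, an assembly factor of complex I in human cells, were both lower. Atp5sl had 798, 808 and 796 normalized counts in the tumor libraries, against 1872, 1779 and 1915 in the control libraries (log2 fold change -1.21 ± 0.09 SE, limma adjusted p = 1.47e-06), and Atp5s had 467, 459 and 556 normalized counts in the tumor libraries, against 1083, 1024 and 1173 in the control libraries (log2 fold change -1.15 ± 0.12 SE, limma adjusted p = 1.94e-05).

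Subunit c forms the rotating ring through which protons pass. It is encoded by 3 nuclear genes, Atp5g1, Atp5g2 and Atp5g3, whose mature proteins are the same and which differ in the targeting sequence that is cleaved on import. Of these 3 genes, Atp5g2 rose while Atp5g1 and Atp5g3 fell. Their promoters are shown because the genes encode 1 protein yet changed in opposite directions, and that of Cox6a1 because it holds the NRF1 motif that is also in the Atp5g2 promoter. Each is the RefSeq sequence of the minus strand in GRCm38.p6 from 250 bases before to 30 bases after the transcript start, at chr15:102671018-102671297 for Atp5g2, chr11:96075602-96075881 for Atp5g1, chr2:73911297-73911576 for Atp5g3 and chr5:115348929-115349208 for Cox6a1. Capitals mark matches on either strand to the NRF1 palindrome with its central pair of bases left free, or to the E-box CACGTG.
Atp5g2: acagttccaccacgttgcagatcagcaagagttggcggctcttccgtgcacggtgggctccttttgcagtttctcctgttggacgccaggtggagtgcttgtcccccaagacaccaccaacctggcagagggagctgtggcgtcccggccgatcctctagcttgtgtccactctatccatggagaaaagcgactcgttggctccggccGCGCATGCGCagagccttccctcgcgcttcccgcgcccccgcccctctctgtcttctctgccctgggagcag
Atp5g1: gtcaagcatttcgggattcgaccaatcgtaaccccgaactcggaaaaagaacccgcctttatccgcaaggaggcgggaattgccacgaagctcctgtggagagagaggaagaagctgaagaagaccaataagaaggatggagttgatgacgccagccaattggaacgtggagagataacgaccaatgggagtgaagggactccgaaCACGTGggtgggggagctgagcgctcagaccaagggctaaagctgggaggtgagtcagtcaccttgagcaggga
Atp5g3: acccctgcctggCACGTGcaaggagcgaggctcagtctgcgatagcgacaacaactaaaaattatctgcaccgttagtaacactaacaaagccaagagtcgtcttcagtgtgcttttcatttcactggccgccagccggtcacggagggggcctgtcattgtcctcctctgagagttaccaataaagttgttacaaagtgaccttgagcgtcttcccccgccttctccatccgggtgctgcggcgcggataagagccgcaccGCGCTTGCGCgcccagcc
Cox6a1: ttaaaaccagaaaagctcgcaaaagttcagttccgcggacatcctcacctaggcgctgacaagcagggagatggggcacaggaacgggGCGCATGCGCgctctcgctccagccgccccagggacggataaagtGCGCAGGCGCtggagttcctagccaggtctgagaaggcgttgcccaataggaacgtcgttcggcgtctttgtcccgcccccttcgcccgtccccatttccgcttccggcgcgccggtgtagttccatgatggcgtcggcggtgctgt

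Atp5g2 had 1568, 1642 and 1398 normalized counts in the tumor libraries, against 609, 675 and 763 in the control libraries. It rose 2.25-fold, the largest rise among the members (log2 fold change 1.17 ± 0.12 SE, limma adjusted p = 1.44e-05), with no overlap between the groups. Atp5g1 had 3821, 3545 and 3608 normalized counts in the tumor libraries, against 5561, 5744 and 5721 in the control libraries (log2 fold change -0.63 ± 0.07 SE, limma adjusted p = 4.19e-05). Atp5g3, the most abundant of the 3, had 12873, 9775 and 10584 normalized counts in the tumor libraries, against 19154, 15119.7 and 16609 in the control libraries (log2 fold change -0.62 ± 0.12 SE, limma adjusted p = 0.00151). Atp5g1 and Atp5g3 had all tumor libraries below all control libraries. Of the counts of the 3 genes together, Atp5g2 made up 8.59%, 11% and 8.97% in the tumor libraries, against 2.4%, 3.14% and 3.31% in the control libraries. The means were 9.51% ± 1.28 in tumor and 2.95% ± 0.48 in control for Atp5g2, 22.6% ± 1.47 in tumor and 24.5% ± 2.37 in control for Atp5g1 and 67.9% ± 2.58 in tumor and 72.6% ± 2.78 in control for Atp5g3. The log2 ratio of Atp5g2 to Atp5g3 was -3.04, -2.57 and -2.92 in tumor, against -4.97, -4.48 and -4.44 in control, a difference of 1.79 (exact permutation p = 0.1, adjusted 0.143). That of Atp5g1 to Atp5g2 differed by -1.81 (exact permutation p = 0.1, adjusted 0.143), and that of Atp5g1 to Atp5g3 by -0.02 (exact permutation p = 0.9). Per kilobase of exon sequence, Atp5g2 made up 13.6% of the 3 genes in tumor and 4.36% in control. These shares rest on joined exon lengths of 4912, 1675 and 2181 bases for Atp5g1, Atp5g2 and Atp5g3. The 3 genes summed to 16271 ± 1752 normalized counts in tumor and 23319 ± 1903 in control, a ratio of 0.698, so the rise of Atp5g2 did not make up for the other 2 genes in the summed count.

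Levels can be compared between genes only per length. Here and in the other values per kilobase, the length joins all annotated exons of a gene, not those of 1 transcript. It is 6443 bases for Atp5l and 4237 for Atp5b, so levels and ranks between genes depend on the annotation. On normalized counts per kilobase of exon sequence, Cox6b1 led in both groups, at 18331 ± 3333 in tumor and 23951 ± 504 in control. Ndufa4, the second-highest gene in control, averaged 12831 ± 2367 in tumor and 21025 ± 1094 in control and ranked sixth in tumor. Uqcrb ranked 24th in tumor and 11th in control, and Cox8a 12th in tumor and 7th in control, while Atp5g2 ranked 66th in tumor and 82nd in control among the 92 genes. Over 84 members (without the tissue-restricted forms and Ndufa4l2), the level per kilobase in control and the log2 fold change had a Spearman rho of -0.24, given as a description only, since the control libraries enter both measures.

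The mitochondrially encoded partners were lower too. Of the 13 mitochondrially encoded subunits, 12 fell (92.3%, against 31.5% of all genes tested) and 0 rose. The remaining 1, mt-Nd6, did not pass (log2 fold change -0.53 ± 0.26 SE, limma adjusted p = 0.108). This gene passed without tumor library 3 (limma adjusted p = 0.0127). All mitochondrially encoded genes took 3.07% ± 0.658 of reads in tumor and 6.95% ± 0.111 in control. In complex I the median log2 fold change was -1.27 over the 7 mitochondrial subunits and -0.40 over the 36 nuclear ones, and 25 of the 36 nuclear subunits lay above every mitochondrial one. In complex III, mt-Cytb stood at -0.91 and the 8 nuclear subunits at a median of -0.31, with 7 of 8 above it and Uqcrb below. In complex IV the medians were -0.90 for 3 mitochondrial and -0.61 for 11 nuclear subunits, 9 of which lay above every mitochondrial one. In ATP synthase they were -0.90 for 2 mitochondrial and -0.28 for 15 nuclear subunits, and all 15 lay above both. The difference between the 2 kinds of subunit was not tested. mt-Co1, the catalytic subunit of complex IV, had 508537, 412603 and 694966 normalized counts in the tumor libraries, against 1071530.0, 1137770.0 and 1108810.0 in the control libraries. In contrast, mt-Co2 had 359.6, 242 and 373 normalized counts in the tumor libraries, against 618, 598 and 577 in the control libraries. Among mt-Co3, mt-Atp6, mt-Atp8, mt-Nd3 and mt-Nd4l, values reached at most 2203 in any library (mt-Nd3, control library 2). The mitochondrial median of ATP synthase thus rests only on genes with such low values, mt-Atp6 and mt-Atp8. That of complex IV rests on mt-Co2 and mt-Co3 beside mt-Co1. The cause of this gap within 1 genome was not tested.

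**Figure D4:**
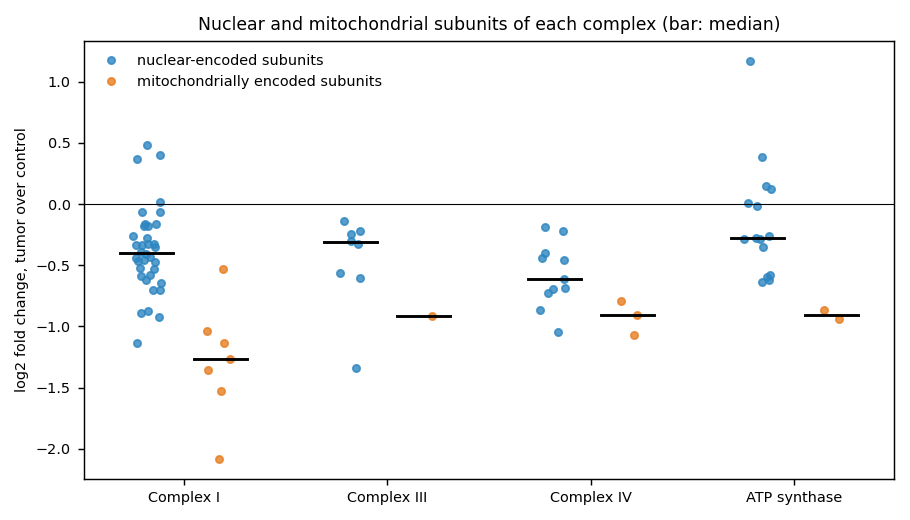
Log2 fold change (tumor over control) of each nuclear-encoded (blue) and mitochondrially encoded (orange) subunit of complexes I, III, IV and ATP synthase, 1 point per gene, with bars at the medians. In each complex the mitochondrial median (-1.27, -0.91, -0.90 and -0.90 from left to right) lies below the nuclear one (-0.40, -0.31, -0.61 and -0.28). The mitochondrial medians of complex IV and ATP synthase include genes with values far below that of mt-Co1.

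Of 37 tested assembly factors that the rule did not take, 4 rose, 14 fell and 19 did not pass, with a median of -0.14. The share lower was 37.8%, near the 31.5% of all genes tested and the 36.4% of protein-coding genes at the members' level. Lyrm7, a chaperone of the Rieske protein, had 241, 225 and 213 normalized counts in the tumor libraries, against 705, 433 and 644 in the control libraries (log2 fold change -1.36 ± 0.19 SE, limma adjusted p = 1.63e-04), and the copper chaperone of complex IV Sco2 averaged 124 ± 19.5 normalized counts in tumor and 268 ± 39.3 in control (log2 fold change -1.10 ± 0.20 SE, limma adjusted p = 8.88e-04). Among the rises were Coa7, a complex IV assembly factor (0.66), and Uqcc2, which helps cytochrome b to assemble (0.30, limma adjusted p = 0.0196, and 0.106 without control library 2). Of 17 genes for electron carriers and coenzyme Q synthesis, 1 rose, 7 fell (41.2%) and 9 did not pass. Gpd2, the glycerol phosphate dehydrogenase that feeds electrons to ubiquinone, fell by 0.91, and Coq10a, a coenzyme Q binding protein, by 0.83. Coq5, a methyltransferase (-0.22), and Coq6, a hydroxylase (0.35), both of coenzyme Q synthesis, lost their calls in 4 of 6 omissions of 1 library each.

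Upstream of the chain, 15 of 18 genes of the citric acid cycle and pyruvate dehydrogenase fell (83.3%, against 31.5% of all genes tested). Of the others, 2 rose and 1 did not pass, and the median over the 18 was -0.55. Sucla2, the ADP-forming succinate-CoA ligase subunit, had 5882, 4477 and 6511 normalized counts in the tumor libraries, against 14622, 13876 and 14440.3 in the control libraries (log2 fold change -1.36 ± 0.13 SE, limma adjusted p = 8.11e-06), and Idh3b, of the NAD-linked isocitrate dehydrogenase, averaged 6653 ± 432 normalized counts in tumor and 13814 ± 529 in control (log2 fold change -1.06 ± 0.08 SE, limma adjusted p = 1.97e-06). The rises were those of Suclg2, the GDP-forming counterpart of Sucla2, which averaged 1759 ± 249 normalized counts in tumor and 1075 ± 44.9 in control (log2 fold change 0.70 ± 0.12 SE, limma adjusted p = 4.63e-04), and Idh2, the NADP-linked isocitrate dehydrogenase. Idh2 had 5495, 5728 and 5377 normalized counts in the tumor libraries, against 1120.0, 1242 and 1277 in the control libraries and rose 4.56-fold (log2 fold change 2.19 ± 0.08 SE, limma adjusted p = 2.74e-08). Of 21 genes for mitochondrial carriers, import and cristae, 6 rose, 6 fell and 9 did not pass, with a median of -0.01. The share lower, 28.6%, was near the 31.5% of all genes tested, of which 30.6% were higher. Of protein-coding genes at the members' level, 36.4% were lower and 41.8% higher. Slc25a4, the ADP/ATP carrier of excitable tissues (-0.65), and the outer-membrane channel Vdac1 (-0.51) fell, and the prohibitin Phb2 (1.21) and the cristae protein Apool (1.21) rose.

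Transcription of nuclear respiratory genes is known to be driven by NRF1, by GABP (encoded by Gabpa and Gabpb1), by YY1 and by ERR-alpha (Esrra), with the coactivators Ppargc1a, Ppargc1b and Pprc1. These regulators moved in both directions. Of 12 listed, 6 rose, 3 fell and 3 did not pass, where 30.6% of all genes tested rose and 31.5% fell. Among protein-coding genes at the members' level, 41.8% rose and 36.4% fell. The falls were those of both PGC-1 coactivators and their partner Esrra. Ppargc1a had 797, 762 and 1075 normalized counts in the tumor libraries, against 3783, 3913 and 3803 in the control libraries (log2 fold change -2.14 ± 0.13 SE, limma adjusted p = 4.19e-07), and Ppargc1b had 31.1, 73.7 and 58 normalized counts in the tumor libraries, against 444, 558 and 479 in the control libraries (log2 fold change -3.24 ± 0.30 SE, limma adjusted p = 8.16e-06). Esrra had 455, 749 and 422 normalized counts in the tumor libraries, against 898, 902 and 1228 in the control libraries (log2 fold change -0.93 ± 0.22 SE, limma adjusted p = 0.00424). The genes for NRF1 and GABP rose. Nrf1 had 2683, 2786 and 2226 normalized counts in the tumor libraries, against 1043, 1046 and 1117 in the control libraries (log2 fold change 1.26 ± 0.11 SE, limma adjusted p = 3.95e-06), and Gabpa had 7292, 6515 and 7384 normalized counts in the tumor libraries, against 3152, 2968 and 3101 in the control libraries (log2 fold change 1.20 ± 0.08 SE, limma adjusted p = 8.99e-07). In all of these genes but Esrra, whose tumor library 2 came closest to the controls, the groups lay far apart. Gabpb1 (0.92), Yy1 (0.94) and the third coactivator Pprc1 (1.29) also rose, each with limma adjusted p under 0.05, as did Tfam, which packages mitochondrial DNA (0.33, limma adjusted p = 0.0269). The call of Tfam ended in 4 of 6 omissions of 1 library, with limma adjusted p up to 0.0956. Tfb1m, Tfb2m and Polrmt, of the mitochondrial transcription machinery, did not pass. Polrmt passed without tumor library 2, at -0.57 in place of -0.26 (limma adjusted p = 0.00846), and stood at -0.02 without tumor library 3. Gabpa overlaps Atp5j on the opposite strand.

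**Figure D5:**
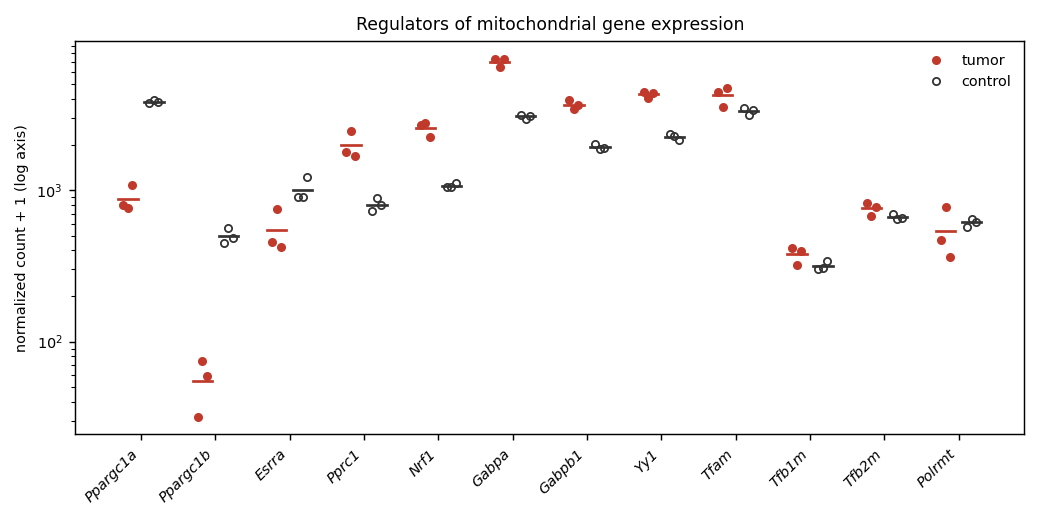
Normalized count + 1 (log axis) of 12 regulators of mitochondrial gene expression in 3 tumor libraries (filled) and 3 control libraries (open), with bars at the mean. Ppargc1a, Ppargc1b and Esrra are lower in the tumors, and Pprc1, Nrf1, Gabpa, Gabpb1, Yy1 and Tfam higher.

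Sequence motifs of these factors were looked for on both strands of the RefSeq promoters (250 bases before to 50 after the start) of the 76 members that matched a table entry. The NRF1 palindrome of 10 bases was in 7 of 76 member promoters (9.21%), against 1.47% of 17492 protein-coding genes, and a looser form that leaves its 2 central bases free, which contains it, in 21 (27.6%), against 9.61%. The YY1 motif, of 10 bases, was in 6 (7.89%), against 1.41%. The ETS motif CCGGAAGT, to which GABP binds, was in 5 (6.58%), against 5.69%, and the E-box CACGTG in 7 (9.21%), against 8.91%. In the sequences shown, the strict NRF1 motif begins 42 bases before the start of Atp5g2 and 162 bases before that of Cox6a1, and Cox6a1 has a looser match 117 bases before the start. Atp5g3 has a looser match 12 bases after its start, and E-boxes lie 44 bases before the start of Atp5g1 and 238 bases before that of Atp5g3. The looser motif was in 14 of the 46 matched members that fell (30.4%), in 1 of the 6 that rose (16.7%) and in 6 of the 24 that did not pass (25.0%). For the strict motif these were 5 of 46 (10.9%), 1 of 6 (16.7%) and 1 of 24 (4.17%). The members that hold the strict motif included Uqcrc1 (-0.56) and Cox6a1 (-0.69), which fell, and Atp5g2, which rose. The protein-coding genes set beside the members were not matched to them in base composition or level. These are matches of letters and show no binding.

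The counts of some members can include reads of other genes. The spans of 26 members overlap another gene with reads, and those of 22 overlap one on the opposite strand, such as Ndufb2 with Braf. Atp5o stands out, with a span of 247290 bases in the table that takes in Itsn1, Donson and Cryzl1. These spans take in introns, and overlap of exons was not looked at. The TruSeq kit named in the labels does not mark strand. Reads from bases shared by a gene and its antisense partner thus cannot be told apart. How the counting treated such reads is not stated, so their part in the members' counts is not known.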

How the data were processed

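TruSeq RNA libraries were prepared from TRIzol-extracted, column-purified RNA, per the labels' protocols. Per the submitters' processing notes, which give neither roles nor order, the tools were edgeR, featureCounts, FastQC and Bowtie2 2.2.4, and the build was mm10. The sources used here state neither annotation release nor strand use. The authors' deposited table holds a signal per gene and library that is the count of reads over a size factor, as found from the values: 100% were whole multiples of 1 read within 1e-06. The authors' deposited shorter list gives a log2 fold change and a p-value per gene, per the file headers, which entered no test here.

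Genes were tested with limma 3.58.1 (R 4.3.3, mean-variance trend) on log2(value + 1), a scale that understates the change of low genes, over the 22117 genes whose value exceeded 1 in 3 or more libraries, with Benjamini-Hochberg adjustment. A floor of 3 counts equals 2.17 to 3.57 normalized counts and covers counting error only. No 2 libraries were alike within sampling noise (chi-square per degree of freedom at least 11.6). The script was tested on simulated data. The design named limma for normalized values, and edgeR 4.0.16 (quasi-likelihood) and DESeq2 1.42.0 on the recovered counts were alternatives, beside other pseudocounts, filters and scalings, a replicate block and the omission of each library. Ratios of paired forms were tested by exact permutation over libraries.

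Members and lists were chosen with earlier results of these data known. Every member is counted by complex, and 1 member's own values are not reported here. Per class and list, the rule names the called genes with the 2 largest and 2 smallest log2 fold changes (by smallest p where fewer than 4 passed) and all paired forms. Other list genes named, and the other library omissions given, were picked after their values were seen. Exon lengths are unions of GENCODE exons on GRCm38. Promoters of Cox6b1, Cox6b2, Cox7a1, Cox7a2, Cox7b and Cox7b2 hold none of the motifs and are not shown. Of the listed markers, those of GABAergic interneurons (5 of 5 lower), astrocytes and Bergmann glia (1 higher, 3 lower of 5), endothelium (3 of 4 lower), choroid plexus (1 higher, 5 lower of 7) and blood (5 of 5 lower) are given here only.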

Additional observations from a re-analysis of the deposited data

How the results depend on the processing

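With edgeR and DESeq2 every one of the 91 members had the same call as with limma, while edgeR called 6800 genes higher and 6611 lower over all genes, against 6761 and 6977 with limma. Over 16 alternatives, 5 to 7 members were called higher and 44 to 67 lower, the lowest number without control library 1 and the highest under upper-quartile scaling. Over the omissions of 1 library the counts ran from 5 to 7 and from 44 to 59. The calls over all genes moved too, from 5787 to 7369 higher and from 5622 to 7449 lower over the 16 alternatives. Over the omissions these ran from 6146 to 6573 and from 5934 to 6983. The calls of 5 of the 7 higher and 41 of the 56 lower members held in all 16 alternatives; Cox7b2, Cox6a2 and Cox8b were not tested with over 1 CPM required in 3 libraries, which counts 2 of them as lost. The members' median ran from -0.48 (upper-quartile scaling) to -0.31 (library totals), while that of all genes shifted by at most 0.09, and the members' median minus that of all genes stayed between -0.44 and -0.32. With library totals the medians were -0.23 for complex I assembly factors, -0.34 for complex I core subunits and -0.22 for complex III, and with upper-quartile scaling -0.52 for complex I core subunits and -0.39 for complex III. Omitting 1 library each gave -0.42 to -0.27 for complex III and -2.18 to -1.74 for the tissue-restricted forms. Near 0, directions changed. The ratio of Atp5g1 to Atp5g3 ran from -0.12 to 0.072 and that of Ndufa4l2 to Ndufa4 from -0.19 to 0.29 over these omissions. With library totals Sdhb stood at 0.025, Ndufs8 at 0.033, Ndufs6 at 0.030 and Atp5j2 at 0.078, and Atp5j2 stood at 0.00013 with TMM scaling and 0.0068 with edgeR. With upper-quartile scaling Atp5o stood at -0.074 and Ndufb11 at -0.067. Over the omissions, Atp5j2 ran from -0.10 to 0.10, Atp5o from -0.077 to 0.11, Ndufb11 from -0.061 to 0.071 and Ndufs6 from -0.13 to 0.017. The cause of these moves was not tested. Of 45 list genes followed in the same way, 39 kept direction and call in all alternatives.

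Over all 22117 genes tested, libraries that share a replicate number did not deviate together. The correlation of deviations was 0.02, -0.05 and -0.007 for numbers 1, 2 and 3, so the numbers are not taken to pair samples. Among the members alone, number 2 was most often the lowest in both groups, in 63 of 91 for tumor and 64 of 91 for control. Whether the members share an effect of replicate number was not tested. With the replicate block, 61 members were lower and 7 higher, and 6943 and 6744 of all genes. Cox6a2, Cox8b, Cox7b2, Ndufa4l2 and Cox4i2 had 107 to 478 reads in all, so counting error limits the precision of their fold changes, beside the spread between libraries.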
